A study of Mus musculus with 4 samples.

Results

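The cerebellum and the superior colliculus develop as neighbours on opposite sides of the midbrain-hindbrain boundary, the cerebellum from the front of the hindbrain and the colliculus from the roof of the midbrain. Their expression profiles were compared at embryonic day 17.5 in mice of the ICR stock, 1 Affymetrix array per region. Per the labels, the cerebellum array held tissue pooled from 13 mice and the superior colliculus array tissue pooled from 16 mice. The stated pool sizes of the 4 samples rise by 1 in listed order, from 13 to 16, and could not be checked. The labels name no genotype or treatment, and they set the groups apart only by region and pool. These are 2 of the 4 arrays of the study, and the arrays of the olfactory bulb and the pontine nucleus are used only for context. Comparison was limited to the 10908 of 19938 named genes whose level passed 8.56 log2 units on 1 or more of the 4 arrays, this floor being the median over all genes and arrays. Values are log2 signals, and every difference is cerebellum minus superior colliculus in log2 units, so that 1 unit is a 2-fold difference.

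As background, the boundary carries the isthmic organizer, a signalling centre whose FGF8 patterns the tissue on both sides, and it forms where Otx2-expressing midbrain meets Gbx2-expressing hindbrain. En1 and En2, homeobox genes, are active across it. The embryonic cerebellum makes granule cells from the rhombic lip, which keep dividing on its surface into postnatal life, and Purkinje cells and inhibitory interneurons from its ventricular zone. The superior colliculus, the visual part of the tectum, has largely finished making neurons by late gestation and receives axons from the retina.

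Of the 10908 genes, 336 (3.08%) were at least 1 log2 unit higher in the cerebellum and 287 (2.63%) at least 1 log2 unit higher in the superior colliculus. There is no replicate check, no error and no p-value, as each region has 1 array, and region and pooled preparation cannot be told apart. The middle 95% of all differences lay between -1.01 and 1.13, with a median of -0.04. Of all compared genes 56.0% read below the collicular level and 42.5% above it, and the counts by sign given below are to be read against these shares. Counts of list members past the rule are likewise to be read against the shares of 3.08% and 2.63%. A background set was formed of 202 genes for vomeronasal receptors and beta defensins, which the brain is not known to use widely. Their 95th percentile of level was 7.33, and 95% of their differences lay between -0.24 and 0.36. None of the 202 differed by 1 unit, but none lay above the level floor either, so they give no error rate for the compared genes. In 30 of the 336 genes and 16 of the 287, the lower of the 2 levels was within the background range. The difference printed for such a gene is the measured one, and its bound, taken against the background percentile in place of the lower level, is smaller. Of the genes past the rule, 6 lay below the level floor on both compared arrays. The size rule cuts through a continuous distribution: 50 genes lay from 1 to 1.1 units higher in the cerebellum and 53 from 0.9 to just under 1, and on the collicular side these numbers were 78 and 92.

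**Figure D1:**
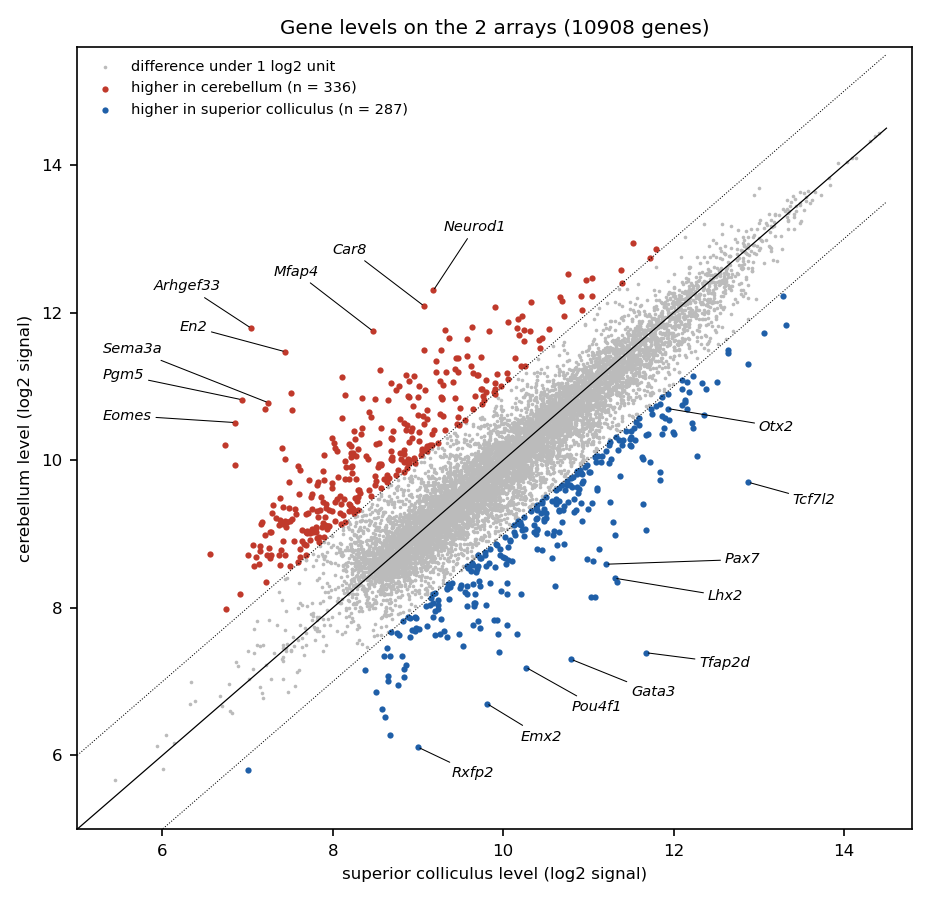
Level of each of the 10908 compared genes in the superior colliculus (x axis, log2 signal) and the cerebellum (y axis, log2 signal), 1 array per region. The solid line marks equal levels and the dotted lines a difference of 1 log2 unit, with 336 genes above the band in red, 287 below it in blue, and Arhgef33 and Tfap2d farthest from the line.

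The 4 markers of the comparison differed to unequal extents. En2 read 11.47 in the cerebellum and 7.44 in the colliculus, and Pgm5, which encodes a junction protein related to phosphoglucomutase, read 10.82 and 6.93. Tfap2d, an AP-2 family transcription factor of the tectum, read 7.39 and 11.68. Otx2 was high on both arrays, at 10.70 in the cerebellum and 11.93 in the colliculus, a difference of -1.23. The olfactory bulb and pontine nucleus arrays read 8.56 and 7.04 for it. Otx2 is also a gene of the choroid plexus. Of 14 choroid plexus and ependymal genes measured, only Otx2 and Sostdc1 (8.89 in the cerebellum and 9.40 in the colliculus) lay above the floor. Below it, Ttr read 7.35 and 6.77, Folr1 7.93 and 7.87, Kl 7.29 and 7.49 and Calml4 7.57 and 8.47, and the part of choroid plexus in the Otx2 levels was not tested.

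Further markers of the labelled cerebellum were high there, with Atoh1 at 10.70 against 7.20, Car8 at 12.09 against 9.07 and Calb1 at 11.81 against 9.63. Zic1, also chosen as a marker, was high on both arrays, at 12.90 and 12.42, and higher in the pontine nucleus, at 13.36. Ptf1a, the factor that specifies the cerebellar inhibitory lineage, lay within or near the background range on both arrays, at 7.38 and 6.83. Collicular markers were high in the labelled colliculus, with Pou4f1 at 7.19 in the cerebellum and 10.27 in the colliculus, Sox14 at 8.98 and 11.31, and Tal1 at 8.06 and 9.66. An exception was Pax3, a paired-box gene of the dorsal neural tube listed here for the tectum, which read 10.59 in the cerebellum and 9.75 in the colliculus. In bulk tissue, fewer cells of a type and less RNA per cell cannot be told apart, and this holds for every gene group below.

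**Figure D2:**
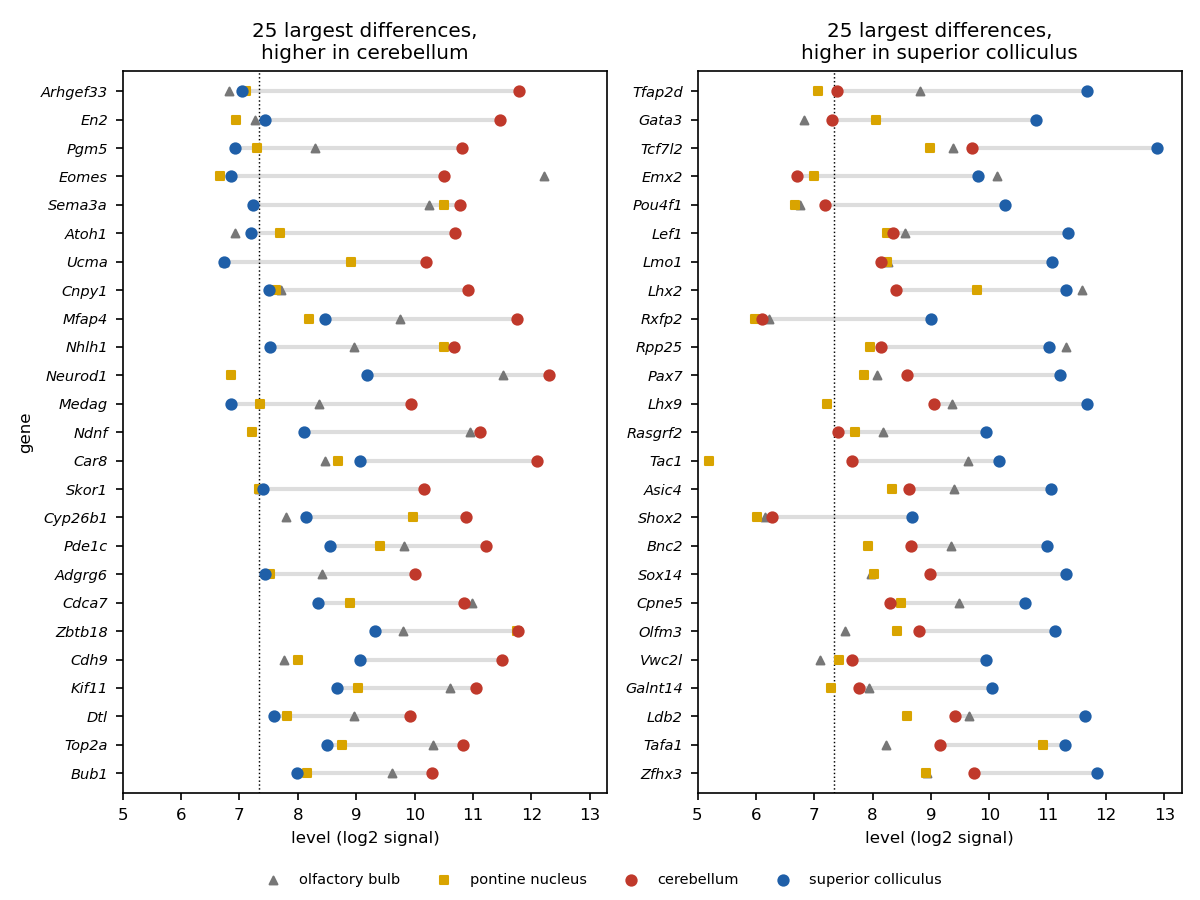
Levels (log2 signal, x axis) of the 25 genes with the largest difference in each direction, on the 4 arrays, 1 point per region. Grey bars join cerebellum and superior colliculus, and the dotted line is the 95th percentile of the background genes, 7.33. Many genes of the left panel, such as Eomes and Sema3a, were also high in the olfactory bulb or the pontine nucleus.

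The largest difference of all was that of Arhgef33, which read 11.79 in the cerebellum and 7.04 in the colliculus, at least 22.0-fold apart when the lower level is set to the background percentile. En2 followed with a difference of 4.03, and Pgm5 with 3.89. Eomes, the T-box factor of cerebellar unipolar brush cells, came next at 10.51 against 6.85, and it was higher still in the olfactory bulb, at 12.21. Also among the 25 largest were Ucma (3.46, at least 7.30-fold), first described in cartilage, Medag (3.09, at least 6.09-fold), Ndnf (3.02), which encodes a secreted neurotrophic factor, Adgrg6 (2.57), an adhesion receptor gene, and Zbtb18 (2.45), a transcriptional repressor gene. Ucma was not confined to the cerebellum, reading 8.91 in the pontine nucleus against 6.74 in the bulb and the colliculus. Of the 336 genes, 288 were higher in the cerebellum than on any other array, and 213 had their lowest level in the colliculus.

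On the collicular side, the 25 largest differences belonged in good part to transcription factors. Tfap2d led with -4.29 (19.6-fold), followed by Gata3, a zinc finger factor of midbrain GABAergic neurons, at 7.30 against 10.80, and Tcf7l2, a nuclear effector of Wnt signalling, at 9.70 against 12.88. Emx2 read 6.70 against 9.81 (at least 5.57-fold) and Lhx2 8.40 against 11.31, and both were at least as high in the olfactory bulb, at 10.13 and 11.59. The rest included genes of signalling and of the cell surface: Rxfp2 (-2.89, at least 3.18-fold, with a cerebellar level of 6.11), a relaxin family receptor, Rasgrf2 (-2.55), a Ras exchange factor, Tac1 (-2.52), the precursor of substance P, Asic4 (-2.42), of the acid-sensing channel family, Cpne5 (-2.32), a copine, and Olfm3 (-2.32), an olfactomedin. Rpp25 (-2.89), an RNase P subunit gene, was shared with the olfactory bulb, at 11.03 in the colliculus and 11.31 in the bulb. Of the 287 genes, 220 were higher in the colliculus than on any other array and 125 had their lowest level in the cerebellum.

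Genes that place tissue along the boundary differed by role. Of 16 compared genes on the boundary list, 6 were higher in the cerebellum and 0 in the colliculus, with a median difference of 0.58 (0.45 over all 22 measured). Besides En2 these were Cnpy1 at 10.91 against 7.51, a gene named for its part in FGF signalling in the zebrafish, Pax2 at 10.23 against 8.01, Etv5 at 10.49 against 9.07, an ETS factor induced by FGF, En1 at 9.04 against 7.70, and Fgf15 at 10.55 against 9.55. Etv5 and Fgf15 were nearly as high in the olfactory bulb, at 10.17 and 10.27, and Fgf15 lay on the cut, at 1.0. The organizer genes themselves gave little difference: Fgf8 read 8.94 and 8.80, and Fgf17 (8.13 and 8.03), Wnt1 (7.63 and 7.82), Gbx2 (8.44 and 7.96), Pax5 (8.32 and 7.58) and Pax8 (7.84 and 7.62) lay below the floor on all 4 arrays. En1 and En2 thus lay on the same side with unequal differences, 1.34 and 4.03, and the collicular level of En2 was close to the bulb at 7.26 and the pontine nucleus at 6.95.

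Of the 50 lists, that of tectal transcription factors had the largest share of genes past the rule on the collicular side. Of 25 compared genes, 19 were higher in the colliculus and 1 in the cerebellum, with a median of -1.60 (-1.45 over all 29 measured). Lmo1, Shox2 and Emx2 were put on that list with their levels in these data known, and without them the count was 16 of 22 and the median -1.52. All lists were drawn up with earlier results of these data known, so this and the reduced lists below are not independent of the data. Pax7, a marker of the dorsal midbrain, read 8.59 against 11.21, and Pou4f1, a POU homeobox gene of projection neurons, 7.19 against 10.27. The LIM homeobox gene Lhx9 read 9.06 against 11.68, the midbrain gene Dmbx1 9.34 against 11.00, and Barhl2 10.61 against 12.36.

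Within several gene families, members fell on opposite sides of the boundary. Among AP-2 genes, Tfap2d and Tfap2b (11.30 against 12.88) were higher in the colliculus and Tfap2a was higher in the cerebellum, at 11.04 against 9.90. Among LIM homeobox genes, Lhx2 and Lhx9 were higher in the colliculus, while Lhx1, a factor of Purkinje cells, was the 1 tectal list member that was higher in the cerebellum, at 11.18 against 10.05. The paired-box relatives Pax3 and Pax7 differed by 0.84 and -2.62. The TALE homeobox genes Meis1, at 11.92 against 10.17, and Meis2, at 11.06 against 12.16, also differed in opposite directions. Among factors of midbrain GABAergic neurons on the tectal list, Gata2 (8.02 against 9.09), Tal1 (8.06 against 9.66), Sox14 (8.98 against 11.31) and Gata3 were higher in the colliculus. Zfpm1, a cofactor of GATA proteins, did not pass the rule at 9.91 against 9.53, and Helt (6.97 and 7.01) and Tal2 (6.54 and 7.25) lay below the floor.

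Markers of regions that border the dissections were checked beside these results. On the thalamic and pretectal list, 5 of 10 compared genes were higher in the colliculus and 0 in the cerebellum, with a median of -1.01. They were Tcf7l2, Lef1 (8.35 against 11.34), the nuclear receptor gene Nr4a2 (8.99 against 10.59), the metabotropic glutamate receptor gene Grm4 (8.59 against 10.03) and Calb2 (10.28 against 11.55). The part of neighbouring tissue in the collicular levels was not tested. Of 10 measured genes of midbrain dopamine neurons 4 passed the floor. Of these Nr4a2 was higher in the colliculus, while Drd2 (9.74 and 10.43), Ret (9.44 and 9.17) and Th (8.07 and 7.76) did not pass the rule, and the dopamine transporter gene Slc6a3 lay below the floor at 8.06 and 7.87. Th passed the floor only through the olfactory bulb (11.33) and the pontine nucleus (9.48). Hox genes, which mark the hindbrain behind the cerebellum, read from 6.12 to 8.41 in the cerebellum and from 5.94 to 8.32 in the colliculus in the 11 that passed the floor through another array. The largest Hox difference was 0.64, for Hoxa2, at 7.71 against 7.07.

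Genes of the granule cell lineage lay mostly on the cerebellar side. Of 30 compared genes, 16 were higher in the cerebellum and 0 in the colliculus, with a median of 1.16 (0.92 over all 32 measured). Without Mfap4 and Pde1c, placed on the list with their levels known, these were 14 of 28 and 0.92. Atoh1, the bHLH factor of granule cell precursors, differed by 3.50, and the later bHLH genes Nhlh1, Neurod1 and Neurod2 read 10.68 against 7.52, 12.30 against 9.18 and 11.41 against 9.58. Pax6 read 11.64 against 9.58, Insm1 11.23 against 9.44, the netrin receptor gene Unc5c 12.21 against 10.67, and the nuclear factor I gene Nfia 12.47 against 11.04. Many of these genes were also high on another array. The pontine nucleus read 11.76 for Pax6, 12.36 for Unc5c, 12.77 for Nfia, 12.22 for Neurod2 and 10.51 for Nhlh1. The olfactory bulb read 11.52 for Neurod1 and 11.17 for Insm1. Atoh1 read 6.92 in the bulb and 7.70 in the pontine nucleus. Not every lineage gene differed: of the Zic genes, Zic5 read 12.22 against 10.91, while Zic1, Zic2 and Zic4 differed by 0.48, 0.66 and 0.17. Of the genes of mature granule cells, Gabra6 lay within the background range at 6.04 and 5.97, and Cbln3 lay below the floor at 7.65 and 7.31.

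Purkinje cell genes were also on the cerebellar side. Of 26 compared, 10 were higher in the cerebellum and 0 in the colliculus, with a median of 0.77. Arhgef33, Skor1 and Cdh9 were placed there with their levels known, and without them these values were 7 of 23 and 0.48. Car8, a carbonic anhydrase relative that binds the IP3 receptor, differed by 3.02 and Calb1, the calcium buffer calbindin, by 2.18. Skor2, a corepressor gene of Purkinje cells, read 9.13 against 7.16, Kitl 11.75 against 9.83, and Pcp2 9.27 against 7.69. Several genes named for Purkinje cells were high on both arrays, such as Foxp2 at 12.09 and 11.61, Ebf1 at 12.62 and 11.79 and Rora at 11.18 and 10.36. Of 8 compared genes of cerebellar inhibitory progenitors, Pax2 and Kirrel2 (9.44 against 8.28) were higher in the cerebellum. Unipolar brush cell and cerebellar nuclei genes split, with Eomes and Tbr1 (7.98 against 6.75) higher in the cerebellum and Lhx2, Lhx9, Mab21l2 and Calb2, also genes of the tectum, higher in the colliculus. Tbr1 lay below the floor on both of these arrays and was compared only through the olfactory bulb, at 12.22.

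**Figure D3:**
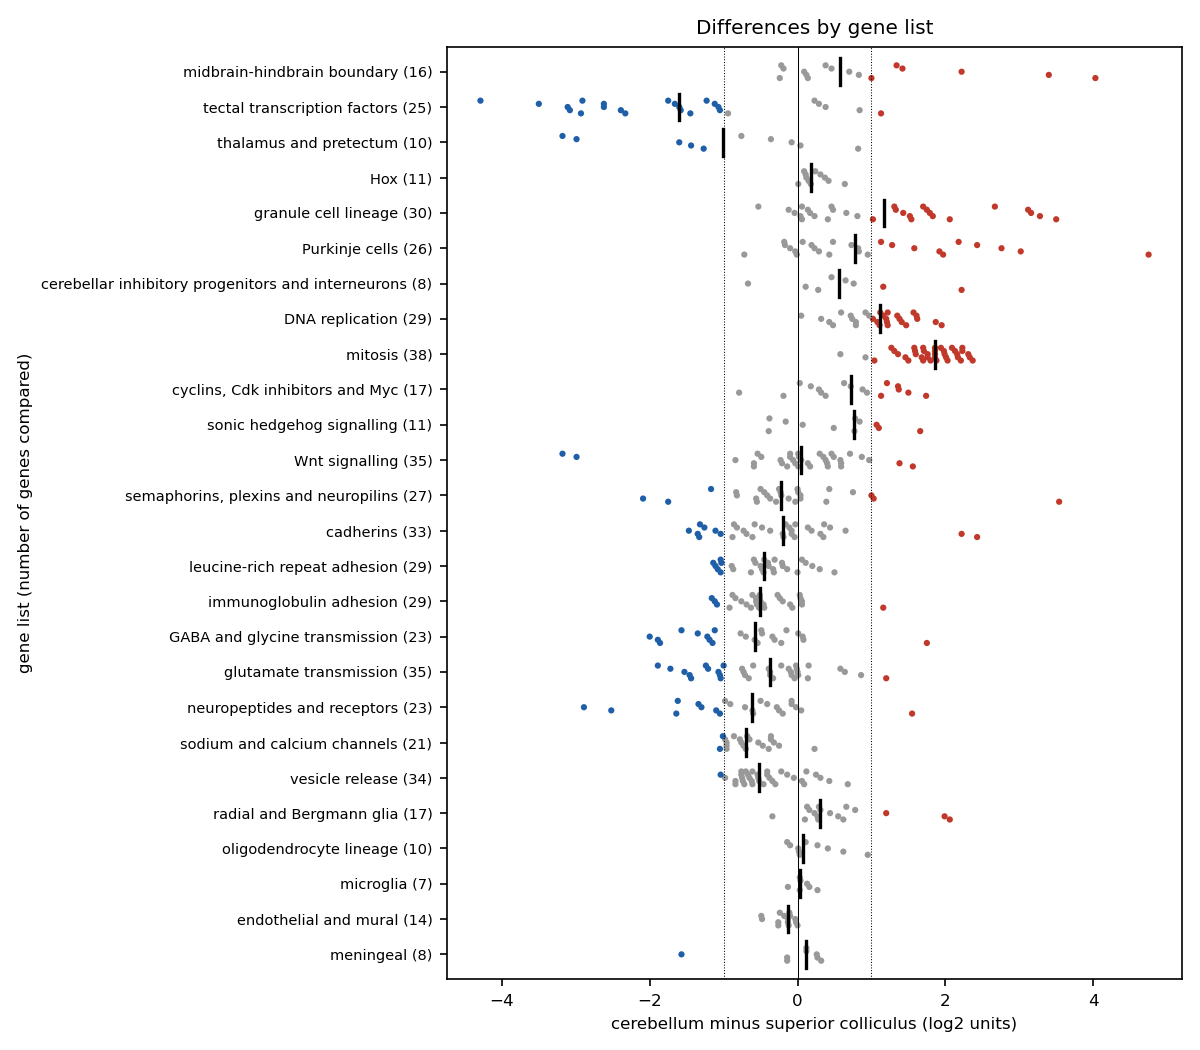
Difference between cerebellum and superior colliculus (log2 units, x axis) of every compared gene on 26 gene lists, 1 point per gene, with the number of genes in brackets and the median as a black bar. Red points are at least 1 unit higher in the cerebellum and blue points at least 1 unit higher in the superior colliculus. The mitosis list lies almost wholly to the right (median 1.86) and the tectal transcription factors mostly to the left (median -1.60).

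Of the 50 lists, mitosis had the largest share of genes past the rule, and DNA replication the largest after it on the cerebellar side. On the mitosis list all 38 compared genes read above the colliculus and 36 were higher by at least 1 unit, with a median of 1.86 and a range from 0.58 to 2.37. On the DNA replication list all 29 read above the colliculus and 18 were higher, with a median of 1.12. Together these lists held 54 of the 336 cerebellum-higher genes, or 16.1%. The kinesin gene Kif11, a spindle motor, read 11.05 against 8.68, Top2a, the topoisomerase of chromosome condensation, 10.83 against 8.50, the checkpoint kinase gene Bub1 10.30 against 7.99, and the proliferation marker Mki67 11.50 against 9.27. The second probe set of Top2a read 4.10 and 4.24, within the background range.

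In the replication group the helicase subunit genes Mcm2 and Mcm6 read 10.95 against 9.08 and 10.30 against 8.68, the transcription factor gene E2f1 10.85 against 8.90, and Pcna, the sliding clamp, 12.04 against 10.93. Of the genes that gate entry into the cycle, 6 of 17 were higher in the cerebellum and 0 in the colliculus. They were Ccnd2 (11.96 against 10.22), Cdkn2c (8.91 against 7.41), Ccnd1 (11.62 against 10.25), Cdk6 (10.62 against 9.26), Cdk2 (9.40 against 8.19) and Mycn (10.93 against 9.80). Myc lay the other way without passing the rule, at 10.03 in the cerebellum and 10.82 in the colliculus. The other arrays fell between these regions: in 35 of the 38 mitosis genes the order was cerebellum, olfactory bulb, pontine nucleus, superior colliculus, with median levels of 9.89, 9.51, 8.54 and 8.21. In the replication list that full order held for 19 of 29 genes.

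**Figure D4:**
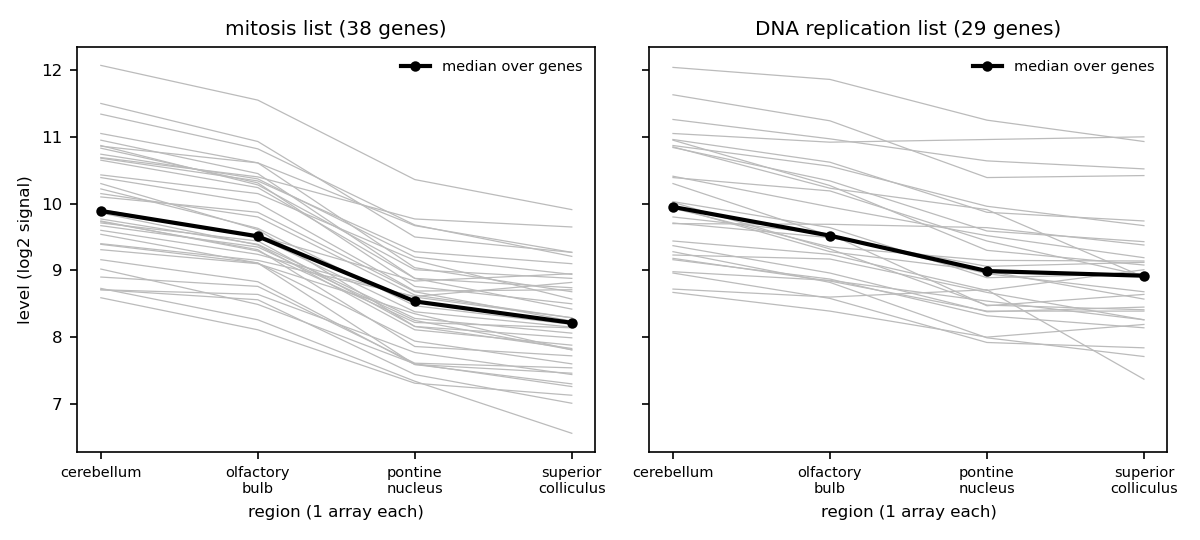
Levels (log2 signal, y axis) of the mitosis genes (left, 38 genes) and DNA replication genes (right, 29 genes) on the 4 arrays, 1 array per region, with 1 grey line per gene and the median over genes in black. Lines join the values of a gene and imply no order of the regions; the medians fall from 9.89 to 8.21 and from 9.95 to 8.92.

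The promoters of these genes are shown because the mitosis genes differed in 1 direction and share short sequence words. Genes expressed late in the cell cycle are known to carry a cell cycle homology region (CHR, TTTGAA or TTCGAA), read by the DREAM and B-MYB complexes, often next to a CCAAT box, which is bound by NF-Y. Genes of the S phase more often carry E2F sites, searched here as TTTCCCGC, TTTCGCGC, TTTGCCGC and TTTGGCGC. Each was searched on both strands in windows of 250 bases before to 50 bases after the annotated start, taken from RefSeq for GRCm38.p6, with 1 window per gene. None of the words contains another, and TTCGAA reads the same on both strands. A CHR is short and occurs in 12.8% of 8759 windows of compared genes.

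Upstream stretches with these words were printed for the mitosis genes with the largest differences that hold both a CHR and a CCAAT box within 120 bases before the start, and for the replication gene Mcm6. Capitals mark the CHR (TTTGAA, or TTCAAA on the other strand) and the CCAAT box (CCAAT or ATTGG), or in Mcm6 the E2F word. Each is written 5′ to 3′ on the strand of the gene.
Kif11, chr19:37376327-37376380, plus strand: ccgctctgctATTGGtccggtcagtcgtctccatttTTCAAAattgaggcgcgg
Top2a, chr11:99024195-99024257, minus strand: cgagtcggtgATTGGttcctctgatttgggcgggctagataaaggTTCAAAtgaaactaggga
Ect2, chr3:27153916-27154002, minus strand: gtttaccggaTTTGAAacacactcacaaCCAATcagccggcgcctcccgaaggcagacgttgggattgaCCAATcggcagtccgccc
Cdk1, chr10:69352913-69352970, minus strand: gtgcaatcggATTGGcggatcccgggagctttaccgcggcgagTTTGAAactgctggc
Mcm6, chr1:128359735-128359762, minus strand: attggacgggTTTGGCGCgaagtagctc

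In Kif11, Top2a and Cdk1 the CCAAT box lay upstream of the CHR, and in Ect2 the CHR lay upstream of 2 CCAAT boxes. A CHR was present in 25 of the 32 mitosis genes with a window (78.1%) and a CHR together with a CCAAT box in 23 (71.9%), against 5.47% of windows of all compared genes for the pair. An E2F word was present in 8 of 25 replication genes (32.0%) and in 1 of 32 mitosis genes (3.12%), against 4.19% of compared genes. Over all genes higher in the cerebellum, 86 of 270 windows (31.9%) held a CHR, and over those higher in the colliculus 26 of 216 (12.0%). The genes higher in the cerebellum include 36 of the 38 mitosis genes, so the 31.9% is not separate from the mitosis share. Over all 27025 genes with a window the shares were 19.4% for the CHR, 7.70% for the pair and 2.32% for the E2F word. A match describes the letters of the window and is not evidence that a factor binds there.

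**Figure D5:**
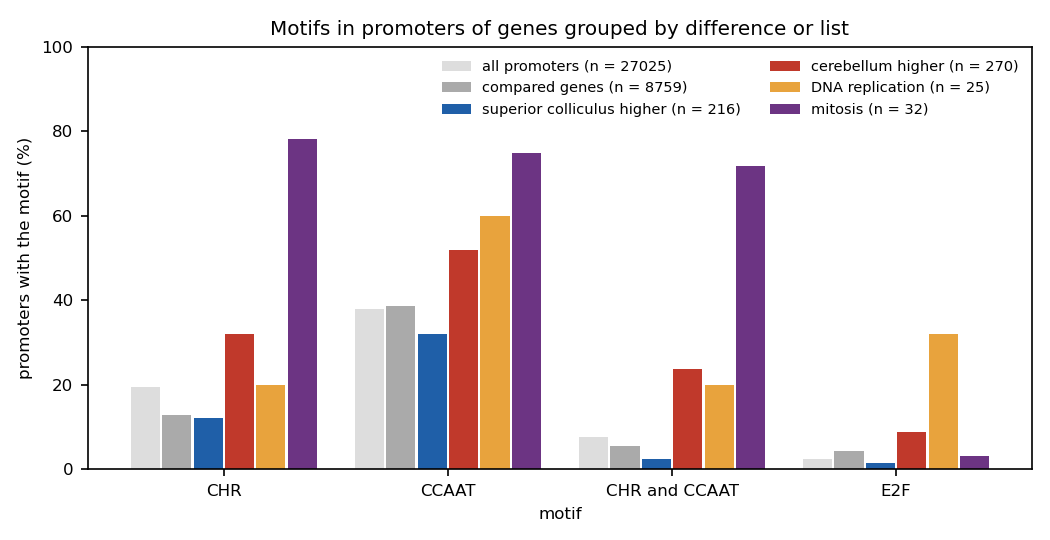
Share of promoters (%, y axis) that hold a CHR, a CCAAT box, both, or an E2F word, with 1 window per gene and bars for all promoters, the compared genes, the genes higher on either side and the 2 cell division lists. The CHR stands at 78.1% in the mitosis list against 12.8% of compared genes, and the E2F word at 32.0% in the replication list against 4.19%.

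Signalling genes differed in a few members per pathway. Of 11 compared genes of the sonic hedgehog pathway, the mitogen pathway of granule cell precursors, 3 were higher in the cerebellum: the co-receptor gene Boc (11.40 against 9.74), the transcription factor gene Gli2 (9.76 against 8.66) and the transducer gene Smo (11.28 against 10.21). The pathway targets Gli1 and Ptch1 differed by 0.84 and 0.77. With no level floor, which adds 5 low genes, the median of that list fell from 0.77 to 0.24. Among 35 Wnt genes the median was 0.05, with the receptor genes Ror1 (9.75 against 8.19) and Fzd2 (9.91 against 8.53) higher in the cerebellum and the nuclear effectors Tcf7l2 and Lef1 higher in the colliculus. Axin2, a general target of the pathway, read 9.64 and 10.18.

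In the BMP family Gdf10, a gene of Bergmann glia, read 11.20 in the cerebellum against 9.21, and Bmp6 and the target gene Id3 were also higher there, by 1.11 and 1.07. The receptor gene Notch2 and the glycosyltransferase gene Mfng each differed by 1.21. Of 13 FGF genes, Fgf3 (9.19 against 7.38), Fgf5 (9.11 against 7.93) and Fgf15 were higher in the cerebellum and the receptor gene Fgfr3 in the colliculus (8.68 against 9.74), and the median of the list was -0.19 (0.04 over all 20 measured, the opposite sign). Retinoid genes included large differences. Cyp26b1, the enzyme that degrades retinoic acid, read 10.88 in the cerebellum against 8.14, Dhrs3, a retinal reductase, 11.19 against 9.33 and the receptor gene Rxrg 9.97 against 8.84, while the binding protein gene Crabp1 was higher in the colliculus, at 9.81 against 10.87. Crabp1 was highest in the pontine nucleus, at 13.36.

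Axon guidance genes showed single large differences rather than shifts of whole families. Sema3a, a secreted repellent of growing axons, read 10.78 in the cerebellum and 7.24 in the colliculus, while it read 10.24 and 10.51 in the bulb and the pontine nucleus, so the colliculus was the low region. Its relative Sema3c had the opposite difference, at 7.84 against 9.93, and the receptor gene Nrp1 read 9.17 against 10.92. The netrin-G1 gene Ntng1 read 9.43 against 11.26, a difference of -1.83 that was -0.79 in its other probe set, and Slit1 read 9.98 against 11.09. Ephrins and Eph receptors, which map retinal axons onto the colliculus, differed little: of 12 compared A-class genes only Epha3 passed the rule, at 10.12 in the cerebellum against 9.11, and of 7 B-class genes none did. The largest ephrin differences were those of Efnb3 (10.61 against 11.48) and Efna2 (10.48 against 11.32).

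Adhesion genes lay more often on the collicular side. Over all compared genes, 2.63% were higher in the colliculus, 3.08% in the cerebellum, and 56.0% read below the collicular level. Of 33 cadherin superfamily genes, 7 (21.2%) were higher in the colliculus and 2 (6.06%) in the cerebellum. The 2 were Cdh9 (11.50 against 9.07) and Fat2 (9.71 against 7.49), a large cadherin of granule cells, and the 7 included Fat3 (10.69 against 12.16), Pcdh11x (10.79 against 12.14), Pcdh18 (10.57 against 11.90) and Cdh13 (10.81 against 12.13). Among 29 leucine-rich repeat genes 6 were higher in the colliculus and 0 in the cerebellum, with differences from -1.03 to -1.14, led by Lingo2 (9.34 against 10.48) and Slitrk3 (10.05 against 11.16). Among 29 immunoglobulin genes 24 read below the collicular level, with a median of -0.51, and Cntn6, Cntn3 and Dscam passed the rule with differences of -1.16, -1.12 and -1.09. Kirrel2, of the same list, was higher in the cerebellum, by 1.16.

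Genes of neuronal transmission and excitability lay more often on the collicular side. Over 10 such lists, 47 of 244 compared genes (19.3%) were higher in the colliculus against 2.63% of all compared genes, and 6 (2.46%) were higher in the cerebellum against 3.08%. The median over the 244 was -0.46, with 192 below 0 and 51 above. The 6 exceptions were Calb1, the glycine transporter gene Slc6a5 (9.12 against 7.37), which marks glycinergic neurons, the somatostatin receptor gene Sstr2 (10.83 against 9.28), Cbln1 (11.77 against 10.25), whose product joins granule and Purkinje cells, the glial glutamate transporter gene Slc1a3 (12.58 against 11.38) and the nicotinic subunit gene Chrna5 (8.57 against 7.50). Cell division genes differed the opposite way between the same arrays, and the part of unequal shares of dividing cells in these differences was not tested.

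Among GABA and glycine genes, 9 of 23 were higher in the colliculus, mostly receptor subunits. Gabra5 read 9.84 against 11.84, Gabrg1 8.68 against 10.57, Gabrg3 8.86 against 10.72 and Gabra2 10.31 against 11.50, and the chloride exporter gene Slc12a5 read 10.35 against 11.70. Gabrg3 and Slc12a5 had their highest level of the 4 arrays in the colliculus. Gabra5 was higher still in the olfactory bulb, at 12.03. Gabrg1 and Gabra2 were higher still in the bulb (11.19 and 11.97) and the pontine nucleus (12.52 and 12.44). Of the enzymes that make GABA, Gad2 differed by -1.12 and Gad1 by -0.54, at 11.03 against 11.57, and the vesicular transporter gene Slc32a1 read 9.34 and 9.27. Other receptor subunit genes of the list did not pass the rule, such as Gabrb2 (-0.77), Glra2 (-0.58), Gabra4 (-0.22) and Glrb (-0.15).

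Glutamate genes followed the same direction, with 11 of 35 higher in the colliculus. Slc17a6, the vesicular transporter of midbrain and hindbrain glutamatergic neurons, read 10.50 against 12.22, while Slc17a7, which read 8.53 and 7.67, lay the other way without passing the rule. Slc17a7 lay below the floor on both of these arrays and was compared only through the olfactory bulb, at 12.24. The receptor genes Grm8 (7.82 against 9.71), Grin2b (10.43 against 11.89), Grm4 and Grin2a (8.12 against 9.36) were higher in the colliculus, as was Cacng3 (9.32 against 10.85), an auxiliary subunit gene. Grm8 read slightly higher in the olfactory bulb, at 9.80, and Grin2b in the pontine nucleus, at 12.05. Grm4, Grin2a and Cacng3 were highest in the colliculus. Among cerebellins, the relatives of Cbln1 took the opposite side, with Cbln2 at 10.19 against 11.50 and Cbln4 at 8.34 against 10.04.

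Of 23 neuropeptide and receptor genes, 8 were higher in the colliculus: Rxfp2, Tac1, the bombesin-like peptide gene Grp (8.02 against 9.66), the neurexophilin gene Nxph1 (9.42 against 11.04), the tachykinin receptor genes Tacr1 (8.21 against 9.55) and Tacr3 (8.04 against 9.14), Cckbr (7.71 against 9.01) and Ntsr1 (7.86 against 8.91). The peptide Tac1 and its receptor Tacr1 therefore lay on the same side. Among receptors for acetylcholine and serotonin, Chrm3 (9.02 against 10.36), Chrm2 (9.06 against 10.40), Htr1a (7.34 against 8.60) and Htr2a (8.90 against 10.08) were higher in the colliculus. Chrm3 and Chrm2 were higher still in the pontine nucleus, at 11.18 and 11.44, and Htr2a in the olfactory bulb, at 10.76. Htr1a was highest in the colliculus. Calcium sensors showed the same split, with Cpne4 (7.84 against 9.89), Hpcal4 (9.04 against 10.60) and Vsnl1 (11.83 against 13.32) higher in the colliculus and Calb1 in the cerebellum. Copines, a family picked after its values were seen, did not lie on 1 side. Of 8 compared, Cpne5 and Cpne4 were higher in the colliculus, and Cpne9 (9.91 against 8.21) and Cpne3 (10.07 against 9.03) in the cerebellum.

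Channel and release genes differed by small amounts, mostly in 1 direction. Of 21 sodium and calcium channel genes 20 read below the collicular level, with a median of -0.70, yet only Cacna1i (-1.05) and Cacna2d3 (-1.01) passed the rule, and Scn2a read 11.64 against 12.62. Of 38 potassium channel genes 31 read below, with Kcnc2 (7.88 against 9.18) past the rule. Of 34 vesicle release genes 27 read below, with a median of -0.52, and Doc2b (9.62 against 10.66) passed, while Snap25 read 12.20 against 12.87. Of 26 postsynaptic genes, Camk2a (9.29 against 10.50) and Nlgn1 (10.43 against 11.54) were higher in the colliculus.

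Genes of radial glia read mostly above their collicular levels. Of 17 genes of radial and Bergmann glia 16 read above the collicular level, with a median of 0.31, and Pax6, Gdf10 and Slc1a3 passed the rule, although Pax6 is also a granule cell gene. Astrocyte genes split, with the connexin gene Gja1 (10.38 against 9.01) and the folate enzyme gene Aldh1l1 (10.87 against 9.76) higher in the cerebellum and Clu (9.05 against 10.22) and Fgfr3 higher in the colliculus. None of 10 oligodendrocyte lineage genes passed the rule, the largest difference being that of Bcas1 (8.39 against 7.44).

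Markers of cells from outside the neural tissue were close on both arrays. None of the 7 microglial genes or of the 14 endothelial and mural genes passed the rule, with medians of 0.04 and -0.13. Of 8 meningeal genes only Dcn passed, at 7.08 in the cerebellum and 8.65 in the colliculus, and the collagen genes Col1a1 and Col1a2 read 8.70 against 8.58 and 8.89 against 8.62. Immediate early genes had a median of 0.06, and of 12 hypoxia and stress genes only the metallothionein gene Mt2 passed, at 11.87 against 10.06. The 12 reference genes differed by a median of 0.09. Transcripts of both sexes were present in both pools, with Xist at 12.75 and 12.50 and the Y-linked Eif2s3y at 9.53 and 9.86.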

How the data were processed

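Per the labels' protocols, total RNA was extracted with Trizol and RNeasy columns, converted with the Ambion WT Expression Kit and labelled with an Affymetrix kit. The log2 values of the deposited table, 1 per probe set and array, were made by the authors with Affymetrix Expression Console, per the submitters' processing notes. The version, background correction, normalization and build were not given in the sources used here, and the log2 scale was inferred from the range of the values. The array medians, from 8.07 to 8.13, were taken to show values already scaled between arrays, which can remove a difference in total RNA. No detection calls were given, and differences of dim genes are compressed.

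Of 35556 probe sets, 21789 had 1 gene symbol in the array annotation, 1621 had several and 12146 were without an entry. Where a gene had several probe sets (999 genes), the one with the highest mean level stood for it; of the 37 such genes past the rule, all probe sets had the same sign in 35. Symbols were checked against RefSeq by Entrez ID (19855 of 19938 matched, 0 changed). The 50 gene lists, the size rule, the named genes and the members were chosen with earlier results of these data known. Named were the 25 largest differences in each direction without predicted genes, small RNAs and receptor families of smell, up to 8 members of each list past the rule, up to 3 where none was, and relatives named beside them; genes shown as not differing were picked after their values were seen. No test was possible with 1 array per region, and the number of arrays limits the precision. Python 3.11.15, NumPy 2.4.6, pandas 2.3.3 and Matplotlib 3.10.9 were used.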

Additional observations from a re-analysis of the deposited data

How the results depend on the processing

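No paired analysis was possible because each region has 1 array. Both counts stayed within 1.5 times of the reported ones with no level floor, a floor at the background percentile, a floor on the 2 arrays compared, quantile normalization, centring on the median difference and averaged probe sets, from 333 to 374 genes for the cerebellum and from 258 to 307 for the colliculus. A floor at the 75th percentile, which tests 5970 genes, left 179 and 190 genes. A rule of 2 log2 units left 56 and 33 genes, and 62.9% of those were on the cerebellar side against 53.9% at 1 unit. Of 248 list medians recomputed, 240 moved by at most 0.35, the size that 95% of background differences stay under, and 0 of the medians of at least 1 unit changed sign. Under that higher floor the boundary list median rose to 1.42. Of 183 named genes past the rule, 4 fell just below it with quantile normalization and 4 with centring. Depth has no direct measure here; signal over background limits the dim genes.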

Other observations

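Further gene families with large differences were picked from the ranked table after their values were seen, and every measured member above the floor was then counted. Over all compared genes, 2.63% were higher in the colliculus and 3.08% in the cerebellum. Of 7 heparan sulfate 3-O-sulfotransferase genes, whose enzymes add a rare sulfate to heparan chains at the cell surface, 6 were compared and 4 were higher in the colliculus: Hs3st3a1 (6.63 against 8.58), Hs3st3b1 (8.07 against 9.67), Hs3st2 (8.97 against 10.24) and Hs3st4 (9.07 against 10.26). Hs3st5 lay the other way, at 10.60 against 9.88. Of 3 compared N-deacetylase and N-sulfotransferase genes, which act earlier on the same chains, 2 were higher in the cerebellum. They were Ndst3 (11.02 against 9.29) and Ndst4 (9.96 against 8.96), the latter on the cut at 1.0. Ndst2 read 9.62 against 9.55, and Ndst3 was as high in the pontine nucleus, at 11.02. All 3 zinc finger homeobox genes were higher in the colliculus, Zfhx3 by 2.11, Zfhx4 by 1.59 and Zfhx2 by 1.29, and Onecut1 and Onecut2 were higher there by 1.55 and 1.62, with Onecut3 at 8.27 against 9.09. Of 13 compared Rgs genes, 3 were higher in the colliculus and 2 in the cerebellum.

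Chromatin gene families, picked in the same way and read from the same 2 arrays, add no independent support to the cell division result. All 5 condensin I genes were higher in the cerebellum, Ncapg (9.21 against 7.33), Smc4 (10.22 against 8.51), Ncaph (9.92 against 8.23), Smc2 (10.04 against 8.69) and Ncapd2 (9.89 against 8.87). Of the genes specific to condensin II, which shares Smc2 and Smc4, 0 of 2 compared passed the rule (Ncaph2 0.15, Ncapd3 0.35). Ncapg2, also specific to condensin II, lay just below the floor at 8.48 against 7.51, a difference of 0.97. Also 0 of 7 cohesin and Smc5/6 genes passed the rule, with differences from 0.08 to 0.26. Of 21 compared histone genes 10 were higher in the cerebellum, against 3.08% of all compared genes. They were led by the linker histone genes H1f5 (11.65 against 9.36) and H1f1 (11.38 against 9.45). Histone genes of a cluster are near copies of each other and their probes may share signal, and canonical histone transcripts carry no poly(A) tail.

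Of 12146 probe sets that the annotation does not list, taken with no level floor, 144 were at least 1 unit higher in the cerebellum and 71 in the colliculus. With no level floor, 374 and 307 of the 19938 named genes passed the rule on these sides. As the floor was left out, these counts cannot be set against the shares of the compared genes.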
